A study of Mus musculus with 6 samples.

Results

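The insulin-like growth factor (IGF) family comprised 10 of the 23282 gene rows in the deposited tables: the ligands Igf1 and Igf2, the receptors Igf1r and Igf2r, and the binding proteins Igfbp2, Igfbp3, Igfbp4, Igfbp5, Igfbp6 and Igfbp7. They were chosen by gene symbol, whatever their level, and each symbol was found on a single row. RNA was sequenced from transfected Ink4a -/- murine astrocytes (Ink4a/Arf -/- in the study's text, a deletion that takes out a pair of tumor suppressors encoded at one locus), and both groups carry this deletion. The control group (3 libraries, genotype given as WT) received the vector pcDNA3.1-puro and the JAG1-overexpressing group (3 libraries) received pcDNA3.1-JAG1-puro. JAG1 is a ligand of NOTCH receptors. The comparison asked which transcripts of the IGF family differed between the groups. Whether libraries were made from separate transfections, clones or cultures is not given in the sources used here, so that p-values measure only the spread between these libraries, which may be technical, and any difference between the cultures other than JAG1 cannot be told apart from it.

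IGF1 and IGF2 are secreted peptides that activate the receptor tyrosine kinase IGF1R, which signals through IRS adaptors, PI3K and AKT and thereby keeps FOXO transcription factors out of the nucleus. IGF2R is not a kinase. It removes IGF2 from the cell surface and carries enzymes tagged with mannose 6-phosphate to lysosomes. The binding proteins are secreted, hold the ligands in the extracellular fluid or matrix and can limit or prolong their access to the receptor, and several also act without a ligand. In the brain, astrocytes are a source of binding proteins, and IGFBP2 in particular has been studied in glioma.

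The sequences before the transcription starts of the binding proteins that differed between the groups are shown first, because 4 of them fell together and 1 rose. All 10 genes matched a promoter entry of RefSeq (GRCm38.p6), with 14 windows in all. For each gene below, the 250 bases before a start are printed 5′ to 3′ on the strand of the gene. For Igfbp2, the upstream one of its windows is given. Capitals mark 3 motifs that were searched on both strands: GTGGGAA, bound by the NOTCH effector CSL; GTCTG, the core of a SMAD site; and CANNTG, an E-box, bound by factors such as TWIST1.
Igfbp2, chr1:72824230-72824479, plus strand: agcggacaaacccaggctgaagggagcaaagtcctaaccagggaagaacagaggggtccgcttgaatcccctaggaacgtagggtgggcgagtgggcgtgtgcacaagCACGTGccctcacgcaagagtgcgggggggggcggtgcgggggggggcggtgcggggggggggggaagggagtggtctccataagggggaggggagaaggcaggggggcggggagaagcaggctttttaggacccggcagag
Igfbp3, chr11:7213924-7214173, minus strand: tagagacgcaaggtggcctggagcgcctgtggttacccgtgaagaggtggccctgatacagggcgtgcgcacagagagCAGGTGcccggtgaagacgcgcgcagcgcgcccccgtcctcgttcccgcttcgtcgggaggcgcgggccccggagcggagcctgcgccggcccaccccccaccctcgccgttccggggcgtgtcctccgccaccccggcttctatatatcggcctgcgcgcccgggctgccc
Igfbp4, chr11:99040994-99041243, plus strand: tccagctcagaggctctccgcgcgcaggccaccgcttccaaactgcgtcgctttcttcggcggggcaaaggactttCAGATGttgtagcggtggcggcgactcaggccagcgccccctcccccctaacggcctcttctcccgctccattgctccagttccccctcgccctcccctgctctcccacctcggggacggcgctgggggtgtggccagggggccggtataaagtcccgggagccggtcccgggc
Igfbp6, chr15:102143936-102144185, plus strand: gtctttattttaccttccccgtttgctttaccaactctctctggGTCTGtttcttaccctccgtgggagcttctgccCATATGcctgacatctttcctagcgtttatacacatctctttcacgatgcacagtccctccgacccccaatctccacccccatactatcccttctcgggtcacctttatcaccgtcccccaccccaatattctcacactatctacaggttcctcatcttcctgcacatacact
Igfbp7, chr5:77408046-77408295, minus strand: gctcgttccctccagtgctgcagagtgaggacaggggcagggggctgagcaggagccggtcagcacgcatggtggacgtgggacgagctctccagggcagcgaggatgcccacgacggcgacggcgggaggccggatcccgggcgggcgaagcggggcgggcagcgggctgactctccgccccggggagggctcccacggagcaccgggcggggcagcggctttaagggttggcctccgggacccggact
No window of these 5 genes held GTGGGAA, which was present in 5.42% of all 32851 windows of the same length. GTCTG was present in the window of Igfbp6 and in the other, downstream window of Igfbp2 (GC content 56.4%), which is not printed, against 42.2% of all windows. Each window of the 4 binding protein genes that fell held 1 E-box, and that of Igfbp7 held 0, against 66.2% of all windows with at least 1. The window of Igf1r, which also fell, held 0, and that of Igfbp5, which was not detected, held 1. The GC content of the printed window was 67.2% for Igfbp2, 73.2% for Igfbp3, 69.2% for Igfbp4 and 74.0% for Igfbp7, above the upper quartile of 61.2% over all windows, and 49.6% for Igfbp6, below the median of 52.4%. A match is a run of letters and not a shown binding site.

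The libraries held 18889751 to 20489062 counted reads in the control group and 14341634 to 20071276 in the JAG1-overexpressing group. They were made with a 3' mRNA kit, in which a transcript gives reads from its end only, so that levels were not divided by transcript length. Levels are in CPM (counts per 1000000 reads of the TMM-normalized library size), and 3 reads, taken as the limit of detection for counting error only, correspond to 0.148 to 0.206 CPM. Jag1 itself was higher in JAG1-overexpressing astrocytes, with a log2 difference of 0.46 between the groups (edgeR, adjusted p = 0.00446). Whether transcripts of the vector were counted on this row is not given in the sources used here. Adjusted p-values of single genes come from edgeR's quasi-likelihood test throughout, and log2FC stands for the fitted log2 fold change, given with its standard error (SE). Of the 13 astrocyte markers, 5 had at most 3 reads in every library, among them Gfap and Aqp4 with 0, while Vim, Sox9, Gja1 and Nes were detected. Of all 11712 genes with enough reads to be tested, 27.4% passed an adjusted p of 0.05 as higher in the JAG1 group and 27.7% as lower, and 5.46% and 8.49% were so with at least a 2-fold difference. The median log2FC of all tested genes was 0.00386.

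In the IGF family, transcripts of Igfbp2, Igfbp3, Igfbp4 and Igfbp6 fell 6.99- to 11.7-fold in JAG1-overexpressing astrocytes, Igf1r fell 1.25-fold and Igfbp7 rose 1.23-fold. Igf2r was the one tested member that was not called. Igf2 and Igfbp5 were at or under the limit of detection in all 6 libraries, and Igf1 was near it. Of the 10 members, 7 had enough reads to be tested, of which 5 were lower and 1 was higher. The share called of all tested genes was 55.1%, and the share called lower with at least a 2-fold difference, as 4 of the members were, was 8.49%. Igfbp2, which is among these 4, had enough reads for the test in the control libraries only. It could thus pass the filter only by being high there. Without Igfbp2, 4 of 6 tested members were lower and 1 was higher. Of all tested genes without those that reached the filter in only 1 group, 26.2% were lower and 27.2% were higher.

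**Figure D1:**
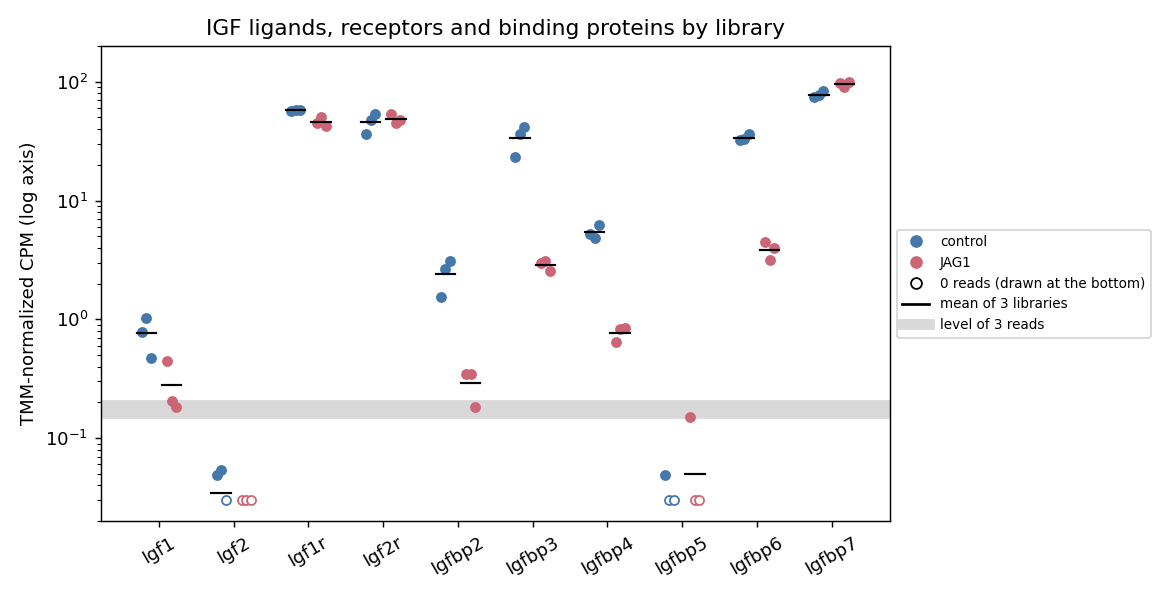
TMM-normalized CPM (log axis) of the 10 IGF family members in each of the 6 libraries, with the mean of each group as a bar and the level of 3 reads (0.148 to 0.206 CPM) as a grey band. Open points are libraries with 0 reads. Igfbp2, Igfbp3, Igfbp4 and Igfbp6 lay lower in all 3 JAG1-overexpressing libraries, whereas Igf2r overlapped between the groups.

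Among the ligands, Igf1 had 16, 19 and 9 reads in control replicates 1, 2 and 3 and 9, 3 and 3 reads in the JAG1-overexpressing ones. The control libraries together held 44 reads and the JAG1-overexpressing libraries 15, a depth-adjusted ratio of 2.58 (exact 95% interval 1.41 to 5.0 from counting error alone). Igf1 did not pass the filter on low counts. With no filter it had a log2FC of -1.37 (adjusted p = 0.0422, edgeR), and when a library was left out its reads passed the filter in 4 of 6 cases, with adjusted p between 0.0155 and 0.118. In 2 of these, without control replicate 3 or without JAG1 replicate 1, it was called lower. In all 4 it passed the filter only through control replicates 1 and 2, where it was highest. The 2 that called it left out its lowest control or its highest JAG1-overexpressing library. Igf2, which is expressed from the paternal allele in most tissues, had at most 1 read in a library, with 2 reads over the control group and 0 over the JAG1-overexpressing group. The ligand transcripts were thus near or below what this depth can show, and no fold is given for Igf2.

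Of the receptors, Igf1r had 56.4, 58.3 and 57.3 CPM in the control libraries and 44.9, 50.7 and 42.0 CPM in the JAG1-overexpressing libraries. All 3 JAG1-overexpressing libraries lay below all 3 controls, which held for 30.9% of all tested genes. The means were 57.3 ± 0.957 and 45.9 ± 4.41 CPM (SD, n = 3), and the log2FC was -0.32 (SE 0.08, adjusted p = 0.00384, edgeR). Igf2r had 36.5, 48.0 and 53.7 CPM in control and 53.5, 45.3 and 48.0 CPM in JAG1-overexpressing libraries. These groups overlapped, control replicate 1 being the lowest of the 6 libraries. The log2FC of Igf2r was 0.09 (SE 0.12, adjusted p = 0.562, edgeR), and it was -0.05 without control replicate 1, so that its direction rested on that library. The number of Igf1r reads per Igf2r read was 1.28 ± 0.246 (SD, n = 3) in control and 0.946 ± 0.152 (SD, n = 3) in JAG1-overexpressing astrocytes, and these groups overlapped (two-sided exact permutation test, p = 0.2, where 3 against 3 libraries cannot go below 0.1).

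Igfbp3, the main carrier of IGFs in blood, showed the largest fall of the family. It had 23.3, 36.5 and 41.3 CPM in the control libraries and 2.99, 3.09 and 2.55 CPM in the JAG1-overexpressing libraries. The controls were spread more widely than for the other binding proteins above 10 CPM, but the lowest control lay far above the highest JAG1-overexpressing library. The log2FC was -3.55 (SE 0.22, adjusted p = 1.53e-07, edgeR), and leaving out any 1 library kept it between -3.75 and -3.38.

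Igfbp6, which prefers IGF2 over IGF1 as a ligand, had nearly the same mean level as Igfbp3 in control astrocytes, at 32.3, 32.7 and 36.1 CPM. It had 4.43, 3.16 and 3.95 CPM in the JAG1-overexpressing libraries. The groups were well apart, and the log2FC was -3.11 (SE 0.12, adjusted p = 3.32e-09, edgeR), an 8.65-fold fall. Igfbp6 lies on chromosome 15, of whose 443 tested genes 336 fell and 30 rose, and whose median log2FC was -0.53. Relative to that median, the difference of Igfbp6 was -2.58.

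Igfbp4, which binds both IGFs and is cut by the protease PAPPA, had 105, 90 and 118 reads in the control libraries and 13, 12 and 14 reads in the JAG1-overexpressing ones, or 5.39 ± 0.695 and 0.774 ± 0.110 CPM (SD, n = 3). Its log2FC was -2.81 (SE 0.22, adjusted p = 9.31e-07, edgeR). Igfbp2, the binding protein associated with glioma, was lower still, with 31, 49 and 59 reads in the control libraries and 7, 5 and 3 reads in the JAG1-overexpressing ones. The groups did not overlap for either gene, which held in this direction for 30.9% of all tested genes. The ratio of Igfbp2 reads between the groups was 8.16 after adjustment for depth (exact 95% interval 4.78 to 15.0 from counting error alone), and the fit gave a log2FC of -3.01 (SE 0.40, adjusted p = 7.75e-05, edgeR).

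Igfbp7, which binds IGFs weakly and is also found in vascular matrix, was the most abundant member in both groups and the one that rose. It had 73.9, 77.1 and 83.1 CPM in control and 97.0, 90.5 and 99.6 CPM in JAG1-overexpressing libraries. The lowest JAG1-overexpressing library lay above the highest control, as it did for 31.1% of all tested genes. The log2FC was 0.30 (SE 0.07, adjusted p = 0.00264, edgeR). The last exon of Igfbp7 overlaps that of Polr2b on the opposite strand, and whether the authors counted reads by strand is not given in the sources used here. Polr2b, an RNA polymerase II subunit, had 102 CPM in control and 108 CPM in JAG1-overexpressing astrocytes, with a log2FC of 0.09 (adjusted p = 0.232, edgeR), and its part in the Igfbp7 reads was not tested. Igfbp5, a binding protein held in the extracellular matrix, had at most 1 read in a control library and 3, 0 and 0 reads in the JAG1-overexpressing libraries, so that no difference was detectable at this depth.

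By level, the order in control astrocytes was Igfbp7, Igf1r, Igf2r, Igfbp6 and Igfbp3, Igfbp4, Igfbp2 and Igf1. Igfbp3 and Igfbp6 did not differ beyond their spread, with means of 33.7 ± 9.32 and 33.7 ± 2.06 CPM (SD, n = 3), and the range of Igfbp3 also reached into that of Igf2r. In JAG1-overexpressing astrocytes, Igf2r and Igf1r overlapped at 48.9 ± 4.18 and 45.9 ± 4.41 CPM (SD, n = 3), and Igfbp2 and Igf1 overlapped at 0.292 ± 0.0948 and 0.279 ± 0.147 CPM (SD, n = 3). Igfbp6 and Igfbp3 remained next to each other, at 3.85 ± 0.641 and 2.88 ± 0.289 CPM (SD, n = 3).

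As the most abundant binding protein rose while 4 others fell, the make-up of the binding protein transcripts differed between the groups more than their total. The 6 binding proteins together had 136, 154 and 170 CPM in the control libraries and 106, 97.9 and 107 CPM in the JAG1-overexpressing libraries, with means of 153 ± 16.8 and 104 ± 4.94 CPM (SD, n = 3). The groups did not overlap, and the two-sided exact permutation test gave p = 0.1, the smallest value possible. Igfbp7 made up 51.1% ± 2.76 (SD, n = 3) of the binding protein reads in control and 92.4% ± 0.544 (SD, n = 3) in JAG1-overexpressing astrocytes. The share of Igfbp6 went from 22.1% to 3.70% and that of Igfbp3 from 21.7% to 2.79%. Without Igfbp7 and Igfbp5, the remaining 4 summed to 75.2 ± 12.2 CPM in control and 7.79 ± 0.546 CPM in JAG1-overexpressing astrocytes (SD, n = 3).

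**Figure D2:**
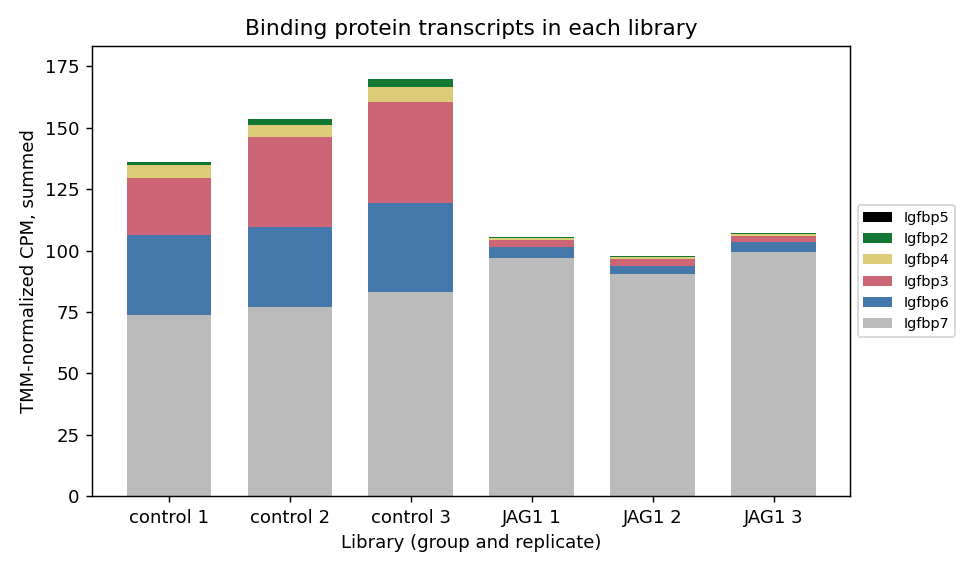
Summed TMM-normalized CPM of the 6 binding proteins in each library, stacked by gene. The control bars reach 136 to 170 CPM with Igfbp7 taking about as much of each bar as the others together, and the JAG1-overexpressing bars reach 97.9 to 107 CPM and are nearly all Igfbp7.

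In the genome (GRCm38, the build named in the submitters' processing notes, with genes from GENCODE M21), the 4 binding proteins that fell lie at 4 separate places. Igfbp2 is at chr1:72824503-72852474, Igfbp3 at chr11:7206086-7213923, Igfbp4 at chr11:99041244-99054392 and Igfbp6 at chr15:102144362-102149511. Igfbp7 is at chr5:77349240-77408041. Igfbp5, which was not detected, lies next to Igfbp2 at chr1:72857932-72874884. The 5 tested genes on each side of a member were set beside it to show whether it moved with its surroundings. The counts below stand against 27.4% of all tested genes that rose and 27.7% that fell. Around Igfbp2, 4 of the 10 flanking genes rose and 1 fell (median log2FC 0.18), the lowest being at -0.32, so that none fell as Igfbp2 did. Around Igfbp3, 3 rose and 3 fell (median 0.05), and the extremes were Ramp3 and Cobl. Ramp3, an accessory protein of peptide hormone receptors, fell by 2.65 on the log2 scale. It was the nearest tested gene before Igfbp3 in chromosome order, where genes that were not tested are passed over. Cobl, an actin nucleator, rose by a log2FC of 4.32. Around Igfbp4, 1 rose and 6 fell (median -0.25), and the range from -6.46 to 5.96 was set by the keratin genes Krt14 and Krt19. Around Igfbp6, 9 of 10 fell and 0 rose (median -0.59), the lowest being at -1.67 for Itgb7, an integrin chain, so that the fall of Igfbp6 exceeded that of each of them. Of the genes beside Igfbp7, 4 fell and 1 rose (median -0.12), while Igfbp7 itself rose. Igf1r, at chr7:67952827-68233668, had 7 of 10 flanking genes that fell and 1 that rose (median -0.57), while the median of chromosome 7 was -0.02. For Igf1r, Igfbp4 and Igfbp6 more of the surrounding genes thus moved in the direction of the member than against it. Their part in its change was not tested.

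**Figure D3:**
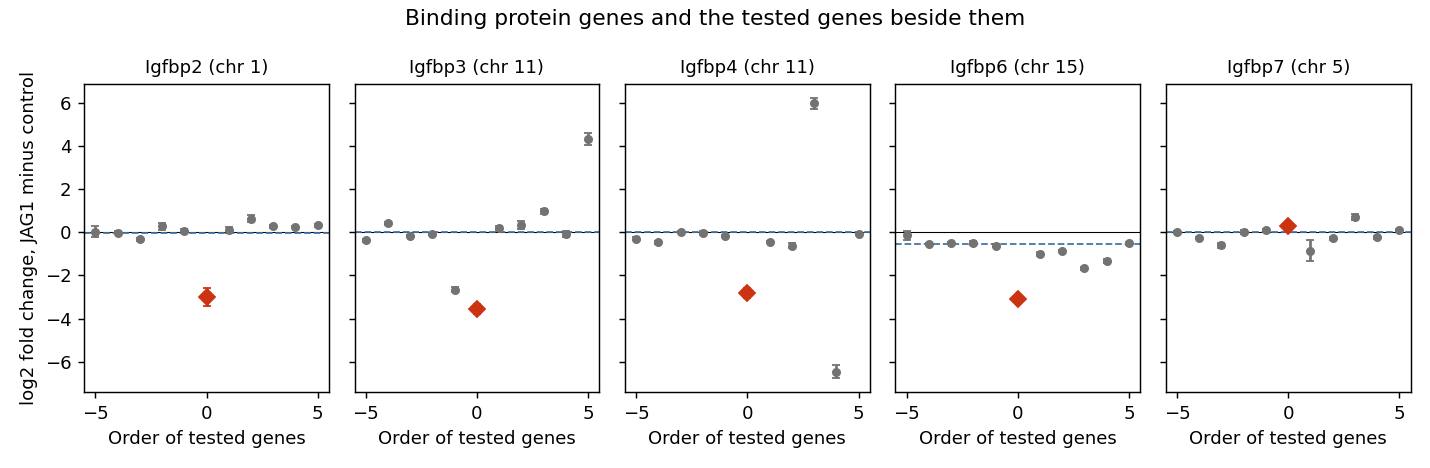
Log2 fold change (JAG1-overexpressing minus control, with standard error) of 5 binding protein genes, drawn as red diamonds, and of the 5 tested genes on each side in chromosome order, in grey. The dashed line is the median of the chromosome. Igfbp6 lies below all of its neighbors on chromosome 15, whose median is -0.53.

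For the 3 called members above 10 CPM with the largest differences, Igfbp3, Igfbp6 and Igf1r, the genes nearest in pattern were found by the root mean square difference of centred log2 CPM over the 6 libraries. For Igfbp3 they were Ctgf (0.15), Pcsk4 (0.18) and Stag2 (0.20). Pcsk4 had a mean of only 1.26 CPM in control and 0.0764 CPM in JAG1-overexpressing astrocytes, the latter below the limit of detection. Ctgf, a matricellular protein, had 1856 ± 493 CPM in control and 184 ± 14.8 CPM in JAG1-overexpressing astrocytes (SD, n = 3), with a spread among the controls as wide in proportion as that of Igfbp3. For Igfbp6 they were Apol10b (0.05), Tubb3 (0.11) and Plcb1 (0.12), and for Igf1r they were Cyb5a (0.03), Slc1a5 (0.03) and Srgap2 (0.03). As the difference between the groups took most of each pattern, likeness here says mainly that the size of the difference was alike.

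Markers of other cell types were compared between the groups, since binding proteins are also made by mesenchymal cells. Over all tested genes, the shares called were 27.4% higher and 27.7% lower. Of 6 fibroblast markers, 5 could be tested, of which 3 were lower and 1 was higher. The summed level of the 6 was 423 to 473 CPM in control and 253 to 293 CPM in JAG1-overexpressing libraries, with Lum at 0 in every library. The sum consisted mostly of Col1a1 and Col3a1, both lower, whereas Col1a2, the other chain of type I collagen, rose from 3.35 ± 0.528 to 50.7 ± 6.20 CPM (SD, n = 3). Of 6 pericyte markers, Pdgfrb and Anpep were lower, the sum going from 82.2 to 86.0 CPM in control to 22.8 to 29.5 CPM, while Rgs5, Cspg4 and Kcnj8 were at 0 in every library. Of the 13 astrocyte markers, 7 of the 8 that could be tested were lower and 0 were higher, with sums of 3293 to 3778 and 3356 to 3422 CPM that consisted mostly of Vim. Sox9, named here after its values were seen, fell from 181 ± 4.64 to 18.0 ± 1.25 CPM (SD, n = 3). Microglial, oligodendrocyte and endothelial markers, each list taken by itself, summed to at most 6.12 CPM in any library. Of 8 microglial markers, 3 could be tested: Tmem119 was lower, Cx3cr1 was higher and Cd68 was not called. Of 5 neuron markers, Tubb3 was lower and Map2 higher, and Snap25 and Syt1 were at 0. In bulk RNA, fewer cells of a type and less RNA per cell cannot be told apart, and the part of these markers in the fall of the binding proteins was not tested.

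Other genes of the IGF axis differed mostly upwards. The 19 genes were tied to IGFs, their binding proteins and receptors or the IGF2 transcript, with the insulin genes and insulin receptor family included. Of these 19, 10 could be tested, and 6 of those rose and 2 fell (median log2FC 0.55). The background was 27.4% higher and 27.7% lower. Igf2bp3 and Stc1 reached the filter on low counts in all libraries of only that group in which they were high. Without them 5 of 8 rose and 1 fell, against 27.2% and 26.2% of all tested genes without such genes. All 3 IGF2 mRNA-binding proteins were higher: Igf2bp1 had 18.6 ± 1.19 CPM in control and 76.7 ± 2.15 CPM in JAG1-overexpressing astrocytes (SD, n = 3; log2FC 2.05, SE 0.07) and Igf2bp2 had a log2FC of 0.42 (SE 0.06), whereas their namesake transcript Igf2 was not detected. Igf2bp3, named after its values were seen, was at 0.498 ± 0.0879 and 1.48 ± 0.232 CPM (SD, n = 3). Kazald1, a secreted protein with an IGF-binding domain, rose by a log2FC of 1.43 (SE 0.08). It lies on chromosome 19, of whose 395 tested genes 292 rose, and whose median log2FC was 0.60. The insulin receptor gene Insr rose by a log2FC of 0.36 (SE 0.10), opposite in direction to Igf1r. Htra1, a secreted protease that can cleave binding proteins, fell by 0.27 (SE 0.08) on the log2 scale. The proteases Pappa and Pappa2, and the circulating partner of binding proteins Igfals, had too few reads to be tested. H19 and Igf2, neighbors under shared imprinting control, were both near 0, and Airn, the antisense transcript of imprinted Igf2r, was not called (log2FC 0.68, SE 0.57).

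Of 36 genes that carry the signal of the insulin and IGF receptors, 32 could be tested, of which 11 were higher and 9 lower. The median log2FC was -0.04, and both shares stood near the background of 27.4% higher and 27.7% lower. Of the genes that rose, Socs2 reached the filter in the JAG1-overexpressing libraries only. The regulatory subunits of PI3K were lower: Pik3r1 had a log2FC of -1.02 (SE 0.05), and Pik3r2 had 38.3 ± 1.59 CPM in control and 12.9 ± 1.43 CPM in JAG1-overexpressing astrocytes (SD, n = 3; log2FC -1.58, SE 0.09). Pik3r3, named after its values were seen, was also called, at 12.7 ± 1.34 and 5.63 ± 1.32 CPM (SD, n = 3). Rictor, a subunit of mTOR complex 2 on chromosome 15, fell by 0.75 and Foxo4 by 0.39 on the log2 scale. Foxo1, named after its values were seen, rose from 5.18 ± 0.259 to 8.74 ± 0.805 CPM (SD, n = 3; log2FC 0.75, SE 0.13). Among the genes that rose were the kinase Akt1 with a log2FC of 0.70 (SE 0.06), the phosphatase gene Ptpn1, a brake of the pathway, with 0.69 (SE 0.07), and the adaptor Shc1 with 0.48 (SE 0.06).

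Transcription targets of FOXO factors are known to fall when AKT is active. Of 13 such genes tested here, 8 were lower and 2 higher, against 27.7% and 27.4% of all tested genes. Their median log2FC was -0.42. Fbxo32, a ubiquitin ligase subunit on chromosome 15, fell by 1.29 (SE 0.11) on the log2 scale, Ccng2, an unconventional cyclin, by 0.73 (SE 0.17), the repressor Bcl6 by 0.55 (SE 0.10) and Gadd45a, a stress response gene, by 0.53 (SE 0.18). The libraries of Gadd45a overlapped between the groups. Bcl2l11, which encodes the cell death protein BIM, rose by a log2FC of 0.83 (SE 0.13), as did Insr, which this list shares with the IGF axis list. No protein or phosphorylation was measured, so that the activity of AKT and its part in these differences were not tested.

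Genes of the mannose 6-phosphate route, the sorting pathway served by IGF2R, were mostly not called, as was Igf2r itself. Of 20 genes, all tested, 3 were higher, 5 lower and 12 not called, with a median log2FC of 0.000619. All tested genes were higher in 27.4% and lower in 27.7%. The other sorting receptor M6pr had 81.3 ± 16.1 CPM in control and 81.1 ± 1.19 CPM in JAG1-overexpressing astrocytes (SD, n = 3). Among the cargo proteins, Psap fell by 0.49, the protease genes Ctsd by 0.42 and Ctsl by 0.25, and the cholesterol carrier Npc2 by 0.23 on the log2 scale, each with an SE of at most 0.08. Gaa, the lysosomal alpha-glucosidase, rose by a log2FC of 0.90 (SE 0.09), Hexa by 0.28 and Nagpa, which trims the mannose 6-phosphate tag, by 0.21.

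**Figure D4:**
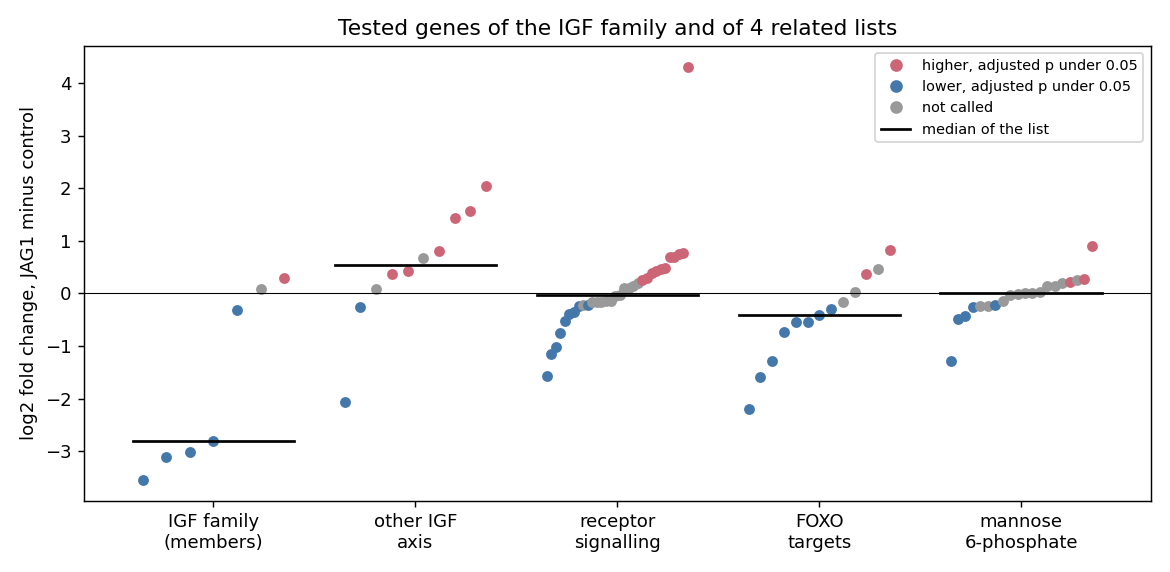
Log2 fold change (JAG1-overexpressing minus control) of each tested gene of the IGF family and of 4 related lists, colored by call, with the median of each list as a bar. Igfbp2, Igfbp3, Igfbp4 and Igfbp6 are the 4 lowest points of the IGF family, between -3.55 and -2.81. The medians of the lists run from -0.42 for FOXO targets to 0.55 for other genes of the IGF axis.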

How the data were processed

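Libraries were made with the QuantSeq 3' mRNA kit. For each library the authors deposited raw read counts per gene and a log2 of normalized read counts. The submitters' processing notes name Bowtie2, bedtools and edgeR and the build GRCm38 (mm10), without their roles; the counting rules, the use of strand and the normalization are not given in the sources used here. The raw counts were analysed in R 4.3.3 with edgeR 4.0.16: filterByExpr at a minimum count of 10 left 11712 of 23282 rows, followed by TMM normalization, the quasi-likelihood test and Benjamini-Hochberg adjustment over all tested genes, with a threshold of 0.05. Standard errors were derived from the F statistic. Differences are JAG1-overexpressing minus control. Genes of the 11712 with a unique GENCODE M21 symbol, 11202 in number, were placed on chromosomes.

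The members and lists were chosen with earlier results of these data known. Named genes were Jag1, all members, for each list up to 4 called genes in each direction whose mean reached 10 CPM, and the 3 genes nearest in pattern to each of 3 members. One gene that this rule names is not reported here. Alternatives were library size alone, upper-quartile factors, DESeq2 1.42.0, limma-voom (limma 3.58.1), other filters, the authors' log2 values tested with limma, a replicate block and leaving out each library.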

Additional observations from a re-analysis of the deposited data

How the results depend on the processing

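Across 15 results (the counts of called genes, the log2 fold changes of the 7 tested members and of Jag1, and the summed binding protein level), 202 of 203 alternatives kept the direction and the call, a count within 1.5 times or, for the sum, a value within 1 SD. The exception was Igf2r, whose log2 fold change of 0.09 turned to -0.054 without control replicate 1 and ran up to 0.21 when other libraries were left out. Igf1, not tested in the fit reported, was tested in 5 alternatives with log2 fold changes of -1.93 to -1.13, and 3 of them called it lower. Where a filter was used, it passed only through control libraries, where it was high. Leaving out a library gave 5516 to 6600 called genes in all and 6 to 7 called members, the 7th being Igf1. The log2 fold change ran from -3.75 to -3.38 for Igfbp3, -2.88 to -2.67 for Igfbp4, -3.25 to -2.77 for Igfbp2, -0.39 to -0.26 for Igf1r and 0.26 to 0.34 for Igfbp7 over these fits. The labels give both groups the replicate numbers 1 to 3. Same-numbered libraries deviated together with correlations across genes of 0.120, 0.0566 and 0.105, and 6 of 6 libraries correlated best with their own number, but nothing in the labels ties them. With a replicate block, 6711 genes and 6 members were called, with 1 member higher and 5 lower. Depth limits Igf1, Igf2, Igfbp5 and the JAG1-overexpressing level of Igfbp2.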

Other observations

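Some genes of the related lists went from the limit of detection to a low level. They were named after their values were seen. Socs2, a feedback inhibitor of growth hormone signalling, which drives Igf1 expression in liver, had 1 read in each control library and 21, 16 and 22 reads in the JAG1-overexpressing libraries. Igfbpl1, a relative of the binding proteins, had 0, 0 and 1 reads in control and 7, 9 and 7 reads in JAG1-overexpressing libraries. Grb14, an adaptor that inhibits the insulin receptor, had 0, 1 and 1 against 8, 5 and 4 reads. Neither Igfbpl1 nor Grb14 passed the filter on low counts, so that they were not tested. Stc1, a stanniocalcin that can inhibit PAPPA, went the other way, from 19, 11 and 14 reads to 7, 1 and 1, whereas its relative Stc2 was at 19.4 ± 0.548 and 20.3 ± 2.32 CPM (SD, n = 3) and was not called. Among the FOXO targets, Sesn3 and Pik3ip1 were also lower, at 5.03 ± 1.44 against 1.12 ± 0.424 CPM and at 11.6 ± 0.913 against 3.80 ± 0.986 CPM (SD, n = 3).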
